A study of Homo sapiens with 8 samples.

Results

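The 9 spliceosomal small nuclear RNA (snRNA) genes described here were RNU4-1, RNU4-2, RNU5A-1, RNU5B-1, RNU5D-1, RNU4ATAC, RNU6ATAC, RNU11 and RNU12. They were found by symbol among the 63140 genes of a count table. They were chosen by name as genes of the major and minor spliceosome, not by value, with earlier results of these data known. The libraries came from chromatin isolation by RNA purification (ChIRP), in which biotinylated probes pull RNA out of fixed and sonicated cells. The labels name no target for the probes and no input library, so each value is an amount of RNA in a pull-down.

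By their labels the cells were MOLM13 and OCI-AML4, which are established human acute myeloid leukaemia lines grown in different media. All were nucleofected with guide RNA and collected on day 3 after editing. The 4 groups were AAVS1 KO (Cas9 ribonucleoprotein, control locus, genotype given as WT), HOTSCRAMBL KO (Cas9 ribonucleoprotein with HOTSCRAMBL, a long non-coding RNA, as target), AAVS1 CBE (cytosine base editor, control locus, genotype given as WT) and HOTSCRAMBL CBE (cytosine base editor, the same target). Each group had 2 libraries, 1 with the MOLM13 label and 1 with the OCI-AML4 label, so the spread within a group includes the difference between the lines. The labels do not say whether the cells of different groups came from separate cultures, so the p-values below measure only the spread between these libraries. No gene in the table was named HOTSCRAMBL, and the edit could not be checked from the counts.

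The spliceosome removes introns from pre-mRNA and is built around snRNAs that carry proteins. In the major spliceosome the U4 RNA pairs with U6 and keeps it inactive until U4 is released, while U5 holds the exons in place for joining. The minor spliceosome, which acts on a small class of introns, uses U4atac and U6atac in place of U4 and U6, uses U11 and U12 to recognise the intron, and shares U5. Most of these RNAs carry a ring of Sm proteins on a short U-rich site, whereas U6 and U6atac carry LSm proteins on the U-rich 3′ end.

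The sequences of the U4 pair are shown because the differences between copies decide whether a read can be assigned to 1 gene, and those of the U4atac and U6atac pair because they differ in the letters near the 3′ end. All 9 genes matched a transcript of equal length in GENCODE v29 (GRCh38), from which the sequences were read. RNU4-1 (ENSG00000200795, chr12:120293097-120293237, minus strand) and RNU4-2 (ENSG00000202538, chr12:120291763-120291903, minus strand) are neighbouring single-exon genes for U4. Their capitals mark the bases that differ between them.
RNU4-1: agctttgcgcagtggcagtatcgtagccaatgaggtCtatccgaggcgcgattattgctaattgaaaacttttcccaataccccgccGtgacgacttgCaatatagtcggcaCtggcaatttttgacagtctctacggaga
RNU4-2: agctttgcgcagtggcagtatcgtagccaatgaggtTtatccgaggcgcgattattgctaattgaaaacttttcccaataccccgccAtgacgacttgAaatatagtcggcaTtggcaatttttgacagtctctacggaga
Counted from 1 at the 5′ end, with the RNU4-1 base first, the differences were C37T, G88A, C99A and C113T, 4 in 141 bases (97.2% identity), and the longest run without a difference was 50 bases. RNU5A-1 (ENSG00000199568, chr15:65296051-65296166, plus strand), RNU5B-1 (ENSG00000200156, chr15:65304677-65304792, plus strand) and RNU5D-1 (ENSG00000200169, chr1:44731055-44731170, minus strand) are copies of U5. RNU5A-1 and RNU5B-1 differed at 7 of 116 bases (94% identity), and RNU5D-1 differed from each of them at 21 (81.9%). RNU4ATAC (ENSG00000264229, chr2:121530881-121531007, plus strand) and RNU6ATAC (ENSG00000221676, chr9:134164439-134164564, minus strand) form the U4atac and U6atac pair. Capitals in them mark the letters AATTTTT.
RNU4ATAC: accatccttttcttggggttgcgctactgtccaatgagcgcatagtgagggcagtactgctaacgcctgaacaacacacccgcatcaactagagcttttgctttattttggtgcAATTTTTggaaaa
RNU6ATAC: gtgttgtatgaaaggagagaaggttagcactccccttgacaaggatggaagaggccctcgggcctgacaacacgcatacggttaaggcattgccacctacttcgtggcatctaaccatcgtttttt
The letters AATTTTT, which resemble the Sm site, were searched on the transcript strand and found in 8 of the 9 genes. They stood at bases 118 to 124 of both U4 genes, 87 to 93 of the 3 U5 genes and 115 to 121 of RNU4ATAC. RNU6ATAC did not hold them and ended in a run of 6 T. Over the first 141 bases of 199827 GENCODE transcripts, 1.34% held these letters, and 6.74% of 1900 annotated snRNA transcripts did.

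How much of a gene could be told from other genes differed widely between the 9. Of all 30-base windows, 53.6% of those in RNU4-1, 42.9% in RNU4-2, 41.4% in RNU5A-1, 39.1% in RNU5B-1 and 41.4% in RNU5D-1 also occurred in another annotated gene. The share was 0% in RNU4ATAC and 87.6% in RNU6ATAC. Reads that aligned to several places were not counted, so counts of genes with shared windows are uncertain as totals. A read that reaches beyond a shared window can still be assigned, and which bases the counts cover was not tested. RNU5A-1 lies within the body of PARP16 on the opposite strand, and RNU4ATAC lies within the bodies of CLASP1 (opposite strand) and CLASP1-AS1 (same strand). Neither overlaps an exon of those genes, and counting did not use strand.

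RNU11 (ENSG00000274978, chr1:28648600-28648733, plus strand) and RNU12 (ENSG00000276027, chr22:42615244-42615393, plus strand) were listed at 0 counts in all 8 libraries. U11 and U12 bind the 5′ splice site and branch point of minor introns. In the annotation of the counts, 131 of the 134 bases of RNU11 (97.8%) also belonged to the gene ENSG00000270103, which was at 0 too. All 150 bases of RNU12 also belonged to ENSG00000270022, which had 8 to 174 counts per library. Reads that overlapped several genes were not counted, so these zeros give no level of either RNA. The other 7 genes all had counts in every library, and all 7 passed the filter on low counts. The results below concern those 7.

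**Figure D1:**
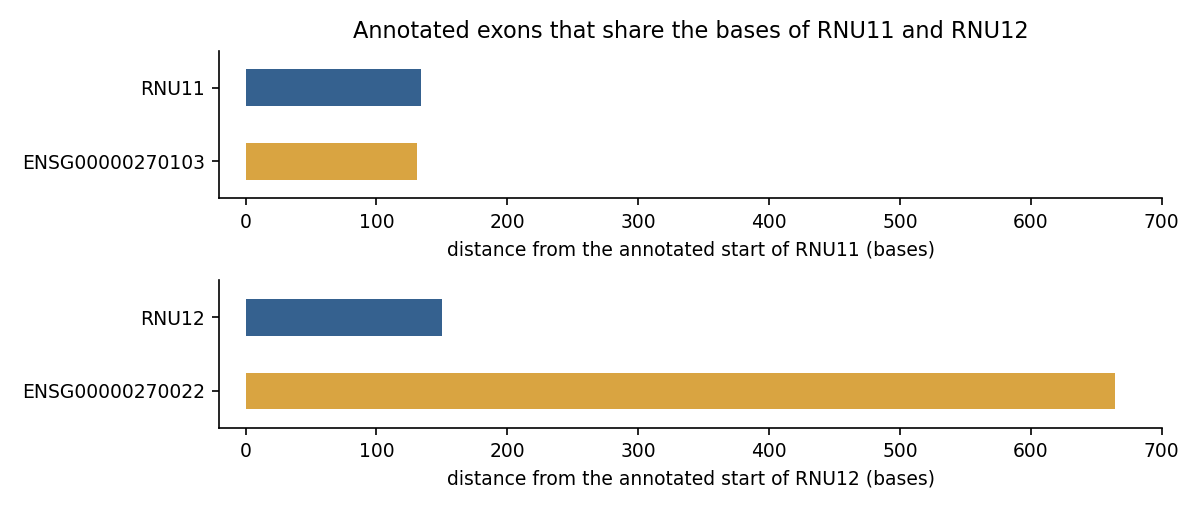
Bars show the exon of RNU11 and RNU12 (blue) and of the second annotated gene that shares its bases (orange), in bases from the annotated start of each snRNA gene. The second gene covers 131 of 134 bases of RNU11 and all 150 bases of RNU12.

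Total counts ran from 20548300 to 37970163 per library, and the 9 genes together took between 0.0196% and 0.0888% of them. The myeloid markers SPI1, a transcription factor of the lineage (247 to 286 CPM), and CD33, a surface receptor (135 to 196 CPM), were present in every library. Of 8 genes listed as markers of other cell types, ALB, HBB and CD3E were at 0, while PECAM1 was at 92.6 to 181 CPM. The counts do not tell which cells gave the PECAM1 RNA. The summed level was 1171 to 1818 CPM for the 9 myeloid markers and 103 to 192 CPM for the other 8, most of it PECAM1.

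The U4 genes gave the most RNA for their length, and minor spliceosome genes gave less. Levels are given as CPM, which are counts normalised to library size, after TMM scaling, a correction for library composition. Per kb of gene length, the mean over the 8 libraries was 1409 CPM for RNU4-2, 943 for RNU4-1, 531 for RNU5A-1 and 242 for RNU5B-1. It was 71.5 CPM per kb for RNU6ATAC, 64.9 for RNU5D-1 and 36.2 for RNU4ATAC. The order RNU4-2, RNU4-1, RNU5A-1 was the same in all 8 libraries, and RNU5B-1 came next in 7 of 8. RNU5D-1 (28.9 to 96.7 CPM per kb), RNU6ATAC (30.8 to 114) and RNU4ATAC (13.9 to 70.7) overlapped in level between libraries and had no fixed order. These levels are bounded by which bases of each gene could be assigned.

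The counts of RNU4-2 in the MOLM13-labelled and then the OCI-AML4-labelled library were 5467 and 3769 (AAVS1 KO), 9062 and 4705 (AAVS1 CBE), 3040 and 2176 (HOTSCRAMBL KO) and 14304 and 3487 (HOTSCRAMBL CBE). The lowest counts were those of RNU4ATAC (46 to 268), RNU6ATAC (76 to 520) and RNU5D-1 (88 to 397). The biological coefficient of variation is the spread beyond counting noise that remains after group and line label are fitted. It was 0.122 for RNU4-2, 0.131 for RNU4-1, 0.162 for RNU5A-1 and 0.224 for RNU5B-1. It was 0.389 for RNU6ATAC, 0.427 for RNU5D-1 and 0.566 for RNU4ATAC, so differences in these 3 genes were measured less precisely.

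**Figure D2:**
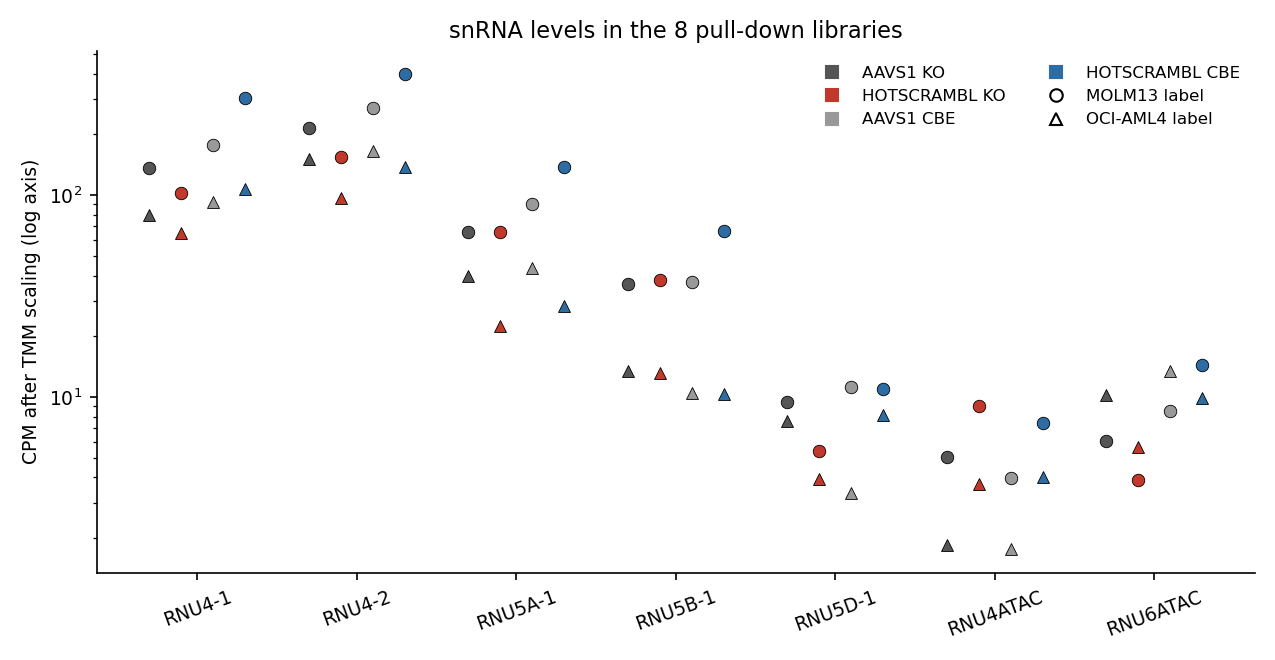
Each point is 1 library, with CPM after TMM scaling on a log axis, coloured by group and shaped by line label. RNU4-2 sits between 97.3 and 396 CPM and RNU4ATAC between 1.77 and 8.98 CPM. In the first 6 genes from the left the circle of every group is above its triangle.

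Whether these RNAs differed between the line labels was addressed by comparing the 4 libraries with the MOLM13 label with the 4 with the OCI-AML4 label. Both U4 genes and 2 of the 3 U5 genes were higher under the MOLM13 label, by 1.84-fold to 3.77-fold. Of the 7 genes, 4 passed edgeR's quasi-likelihood test at an adjusted p of 0.05, all in the same direction. Over all 24057 genes tested, 0.495% passed and 0.237% passed as higher under the MOLM13 label. The lines were grown in different media, so line and medium cannot be told apart. The line label was also the replicate number in every group. Anything else that differed between the replicate numbers cannot be told apart from the line either. Nor can fewer cells and less RNA per cell be told apart in a bulk pull-down. The median log2 fold change was 1.02 over the 7 genes and -0.01 over all genes tested. Of the 9 myeloid markers, 0 passed between the labels. Whether each library came from the line that its label names was not tested.

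RNU5B-1 differed most. Its CPM in the MOLM13-labelled and OCI-AML4-labelled library was 36.5 and 13.4 (AAVS1 KO), 37.0 and 10.5 (AAVS1 CBE), 38.0 and 13.1 (HOTSCRAMBL KO) and 66.1 and 10.4 (HOTSCRAMBL CBE). All 4 MOLM13-labelled libraries were above all 4 with the other label. The log2 fold change was 1.91 (SE 0.226, n = 4 per label, edgeR adjusted p = 1.84e-05), a 3.77-fold difference.

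RNU5A-1, the U5 copy with the most counts, had CPM of 65.4 and 39.6 (AAVS1 KO), 90.2 and 43.5 (AAVS1 CBE), 65.9 and 22.4 (HOTSCRAMBL KO) and 138 and 28.3 (HOTSCRAMBL CBE), in the same order of labels. The labels did not overlap. The log2 fold change was 1.40 (SE 0.182, edgeR adjusted p = 6.93e-05), a 2.64-fold difference.

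RNU4-1 had CPM of 137 and 80.0 (AAVS1 KO), 178 and 92.9 (AAVS1 CBE), 103 and 64.6 (HOTSCRAMBL KO) and 301 and 107 (HOTSCRAMBL CBE). Within each group the MOLM13 label was higher, but the label ranges overlapped, since 103 in one lay below 107 in the other. The log2 fold change was 1.02 (SE 0.120, edgeR adjusted p = 1.84e-05).

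RNU4-2 had CPM of 214 and 151 (AAVS1 KO), 272 and 166 (AAVS1 CBE), 155 and 97.3 (HOTSCRAMBL KO) and 396 and 137 (HOTSCRAMBL CBE). It too was higher under the MOLM13 label in 4 of 4 groups, with ranges that overlapped. The log2 fold change was 0.88 (SE 0.120, edgeR adjusted p = 9.95e-05). For both U4 genes and both of these U5 genes, the ratio of the labels was largest in HOTSCRAMBL CBE, at 2.82 for RNU4-1, 2.89 for RNU4-2, 4.87 for RNU5A-1 and 6.36 for RNU5B-1. The MOLM13-labelled library of that group was also the deepest, while the MOLM13-labelled library of HOTSCRAMBL KO was the shallowest. In HOTSCRAMBL KO the ratios were 1.60, 1.59, 2.94 and 2.89 in the same order of genes. The MOLM13-labelled totals were 20548300 (HOTSCRAMBL KO), 24560289 (AAVS1 KO), 31869901 (AAVS1 CBE) and 37970163 (HOTSCRAMBL CBE). CPM of both U4 genes rose in that order under this label. RNU5A-1 and RNU5B-1 were also highest in the deepest library but did not keep the order below it. Under the OCI-AML4 label the U4 genes did not follow the totals. The part of depth in these values was not tested.

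The remaining 3 genes did not pass. RNU4ATAC was higher under the MOLM13 label in 4 of 4 groups, and its fitted log2 difference was 1.15 (SE 0.449, unadjusted p = 0.0166, edgeR adjusted p = 0.398). DESeq2, the other count test run, called it (log2 fold change 1.19, adjusted p = 0.0329), in a fit that called 715 genes in all where edgeR called 119. RNU5D-1 had a log2 fold change of 0.72 (95% interval -0.02 to 1.46, edgeR adjusted p = 0.557). RNU6ATAC had -0.24 (95% interval -0.91 to 0.44, edgeR adjusted p = 0.893), and in it 3 of 4 groups had the lower value under the MOLM13 label.

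**Figure D3:**
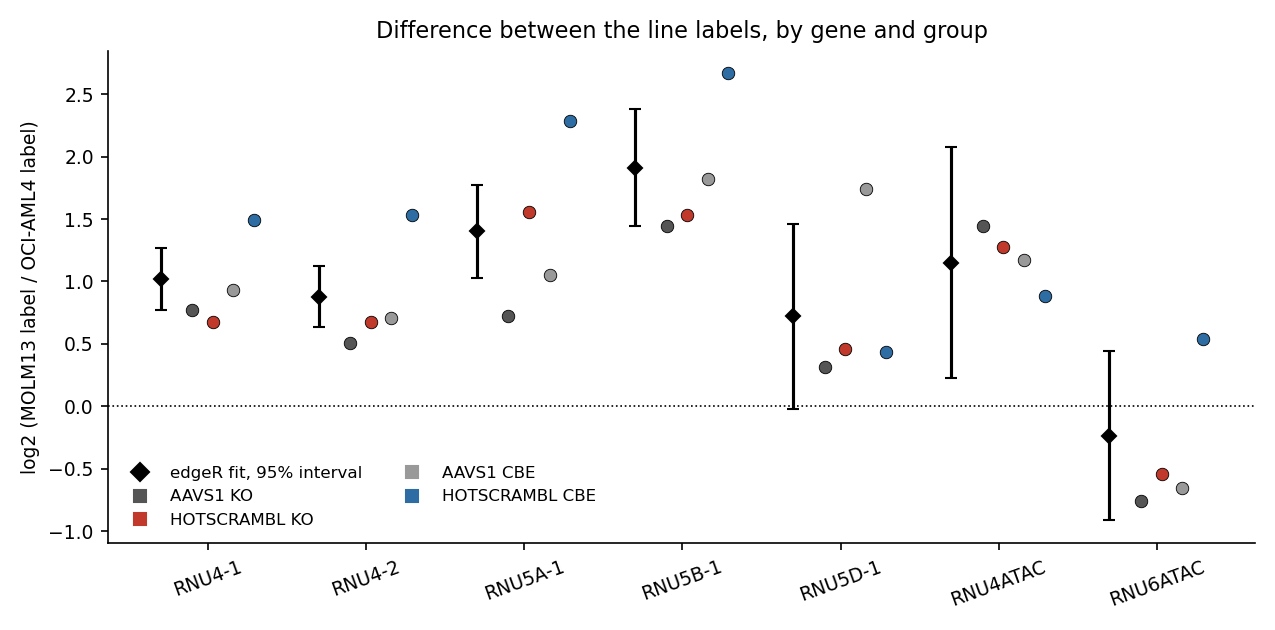
Diamonds are edgeR log2 fold changes of the MOLM13 over the OCI-AML4 label with 95% intervals, and dots are the log2 ratio within each group. The intervals of RNU4-1, RNU4-2, RNU5A-1, RNU5B-1 and RNU4ATAC lie above 0, and the RNU4ATAC interval is from a gene that missed the adjusted threshold.

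Other small RNAs did not all go the same way between the labels. The 7SL RNA gene RN7SL1, the RNA of the signal recognition particle, was higher under the MOLM13 label (log2 fold change 0.58) but is uncertain because it has near-identical copies, and RMRP, the RNA of RNase MRP, was lower (-0.53). Of 13 tested scaRNAs, guides that direct modification of snRNAs in Cajal bodies, SCARNA11 was higher (0.81) and none was lower. Of the 991 tested genes of at most 200 bases outside the 9, 12 were higher and 3 lower, with a median log2 fold change of -0.06. This last list was added after values had been seen. Of the proteins of the snRNPs, 0 of 8 Sm core, 0 of 7 LSm, 0 of 17 tri-snRNP and 0 of 13 minor spliceosome genes passed. Of 27 genes for snRNA transcription and processing, BDP1, a factor of RNA polymerase III, was higher under the MOLM13 label (0.32, edgeR adjusted p = 0.0377) and none was lower.

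Further annotated copies took a small part of the counts in the families of the 7 genes. RNU4-1 and RNU4-2 held 98.2% of the counts of 90 annotated U4 copies, and the 3 U5 genes held 87.4% of those of 31 U5 copies. RNU4ATAC held 86.8% of its family and RNU6ATAC 90%. The 71 counts of the U11 family and the 15 of the U12 family were all on further copies. Over all families, U1, U2, U6 and U7 included, further copies took 0.0178% to 0.0289% of a library's counts, beside 0.0196% to 0.0888% for the 9 genes. The most counted further U5 copy, RNU5F-1 (129 to 759 counts), gave 0.57 on the log2 scale between the labels (SE 0.314, edgeR adjusted p = 0.614). Of 198 tested further copies of all families, 0 passed in this comparison, in HOTSCRAMBL KO or in HOTSCRAMBL CBE. U1, U2 and U6 are not among the 9 genes, and their most counted copies were RNVU1-27 (71.4 CPM per kb), RNU2-6P (19.2) and RNU6-9 (41.8).

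The make-up of the snRNA pool was compared through ratios of counts within a library, with exact two-sided permutation tests of 4 libraries against 4. These tests shuffled all 8 libraries freely, over 70 arrangements, and did not use editors or the pairs of libraries. The smallest p that such a test allows is 0.0286, and p-values were adjusted over 10 tests. A test within pairs has fewer arrangements and could not reach that p. After that adjustment 0 of 10 passed, and 3 reached the smallest p. The 9 genes took 0.0593% ± 0.0225 of all counts in MOLM13-labelled and 0.0291% ± 0.00678 in OCI-AML4-labelled libraries (SD, n = 4, exact permutation p = 0.0286, adjusted 0.0952). The log2 ratio of the 2 minor to the 5 major genes was -5.29 ± 0.313 and -4.45 ± 0.0998 (SD, n = 4, exact permutation p = 0.0286, adjusted 0.0952). For both values no library of one label lay within the range of the other, and the sign of the difference was the same in 4 of 4 groups.

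The third ratio at the smallest p was the RNU4-1 share of the 2 U4 genes, in the comparison of targets. It was 39.0% and 34.7% (AAVS1 KO), 39.5% and 35.9% (AAVS1 CBE), 39.9% and 39.9% (HOTSCRAMBL KO) and 43.2% and 43.8% (HOTSCRAMBL CBE), with the MOLM13 label first. The widest 95% Wilson interval was 38.3% to 41.5%, for the OCI-AML4-labelled library of HOTSCRAMBL KO. These intervals are over reads and would be wider over read pairs. All 4 HOTSCRAMBL libraries lay above all 4 AAVS1 libraries, at 41.7% ± 2.07 against 37.3% ± 2.35 (SD, n = 4, exact permutation p = 0.0286, adjusted 0.0952). The gap between the highest AAVS1 library and the lowest HOTSCRAMBL library was smaller than the counting intervals of both. With further annotated copies in the denominator the difference went from 4.46 to 3.92 percentage points (exact permutation p = 0.0571).

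Of the counts of the 3 listed U5 genes, RNU5A-1 took between 56.7% and 75.9%, RNU5B-1 between 18.3% and 34.8%, and RNU5D-1 between 4.95% and 17.4%. Further U5 copies are left out of these shares, among them RNU5F-1, which had more counts in all (2294) than RNU5D-1 (1700). The RNU5A-1 share did not differ between targets beyond the spread (60.4% ± 3.01 in HOTSCRAMBL and 66.3% ± 7.11 in AAVS1, SD, n = 4, exact permutation p = 0.229). RNU4ATAC and RNU6ATAC make RNAs that pair with each other. Their log2 ratio ran from -2.93 in the OCI-AML4-labelled library of AAVS1 CBE to 1.21 in the MOLM13-labelled library of HOTSCRAMBL KO. It was higher under the MOLM13 label in 4 of 4 groups, by 0.35 to 2.21, and the mean difference of 1.55 had an exact permutation p of 0.114 (adjusted 0.286). It was also higher in the HOTSCRAMBL library in 4 of 4 pairs with the same label, and the mean difference between targets was 1.28 (exact permutation p = 0.229, adjusted 0.381).

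**Figure D4:**
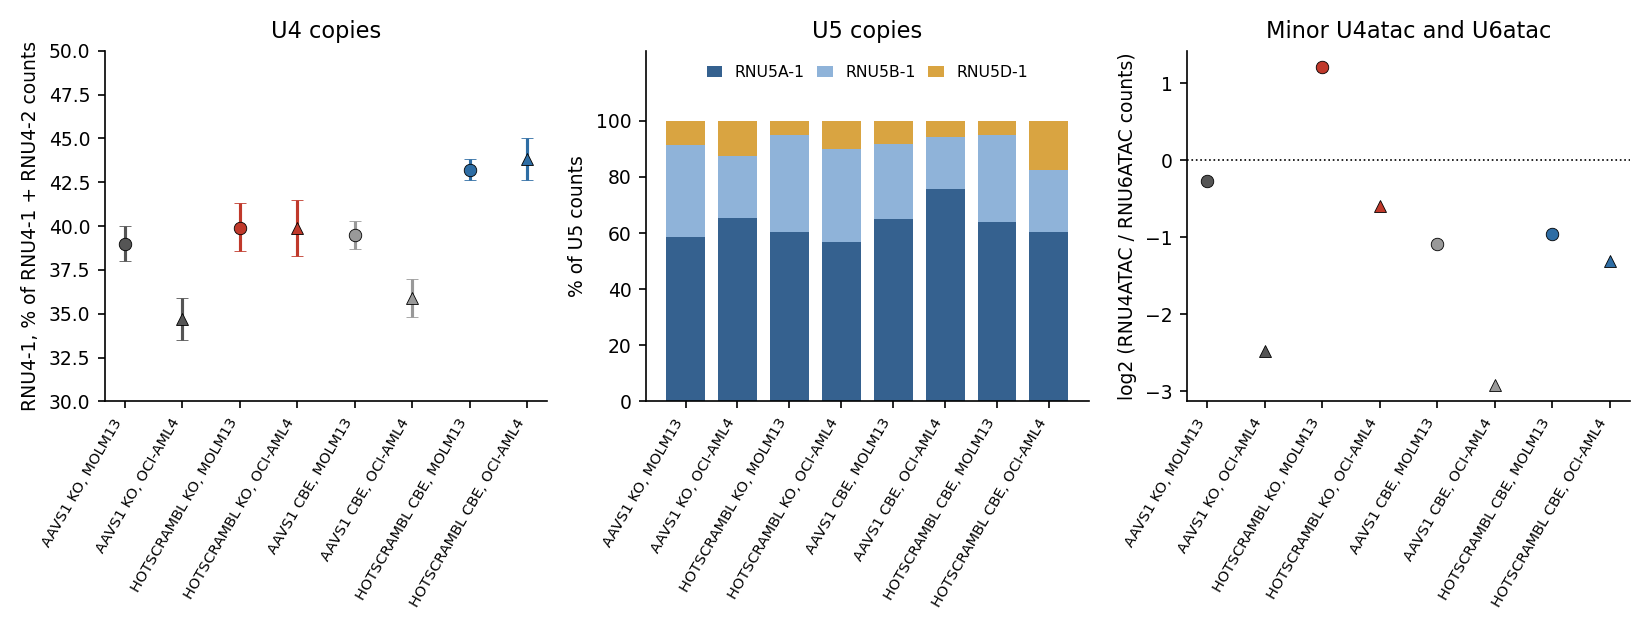
Left, the RNU4-1 share of U4 counts with 95% Wilson intervals on an axis cut at 30% and 50%; middle, the shares of the 3 U5 genes; right, the log2 ratio of RNU4ATAC to RNU6ATAC counts, 1 position per library. The 4 HOTSCRAMBL libraries lie between 39.9% and 43.8% in the left panel, above the AAVS1 libraries at 34.7% to 39.5%.

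Across the 8 libraries, log2 CPM of RNU4-1 and RNU4-2 correlated at r = 0.965, of RNU4-2 and RNU5A-1 at 0.947, and of RNU5A-1 and RNU5B-1 at 0.904. RNU4ATAC and RNU6ATAC had r = -0.471. These are descriptions over 8 libraries that share groups, labels and scaling. The mean profile of the 7 genes was highest in the MOLM13-labelled library of HOTSCRAMBL CBE and lowest in the OCI-AML4-labelled library of HOTSCRAMBL KO. Among 7251 genes with a mean of at least 20 CPM, the profiles most like it were those of GTF2A1 (r = 0.97), PPP2R1B (0.936), NF1 (0.927), PDP2 (0.923) and TSHZ1 (0.91). With a minimum of 100 CPM, or with Spearman's correlation, 1 of these 5, NF1, was again among the top 5.

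The effect of HOTSCRAMBL knockout was tested against AAVS1 KO, with the line label as a term. Of the 7 genes, 0 passed with edgeR, where 8.76% of all genes tested did, and 1 of the 7 had an unadjusted p under 0.05, where 20.1% of all genes did. DESeq2 called 0 of the 7. The median log2 fold change was -0.36 over the 7 genes and -0.01 over all genes. RNU4-2 came nearest, with 214 against 155 CPM in the MOLM13 pair and 151 against 97.3 in the OCI-AML4 pair (AAVS1 first). It was lower in HOTSCRAMBL KO in both pairs, and the fitted log2 difference was -0.55 (SE 0.180, edgeR adjusted p = 0.0582). The call is sensitive to settings, since without TMM scaling the log2 fold change was -0.70 (edgeR adjusted p = 0.00914), and changed filters on low counts also put it past the threshold. Leaving out TMM moved the median of all genes to -0.17 in KO and -0.15 in CBE.

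Markers moved in the same comparisons. Of the 9 myeloid markers, LYZ, the lysozyme gene (log2 fold change 2.20), CEBPA, a myeloid transcription factor (1.00), and CSF1R, a cytokine receptor (0.69), rose in KO, and CEBPA (0.61) and PTPRC (0.67) rose in CBE. None of the 9 passed as lower in either. In the average of both editors, LYZ (1.22) and CEBPA (0.80) rose, and MPO (-0.73), ITGAM (-0.87) and CD33 (-0.33) fell. Together the 9 took 0.155% and 0.169% of counts in the HOTSCRAMBL KO libraries beside 0.125% and 0.131% in their controls. With the base editor they took 0.117% and 0.124% with HOTSCRAMBL as target beside 0.124% and 0.125% in the controls. Between the line labels 0 of the 9 passed. Of the 4 tested markers of other cell types, PECAM1 rose in KO (0.74) and 0 passed in CBE. The 8 genes listed as markers of other types took 0.0147% and 0.0183% of counts in the HOTSCRAMBL KO libraries. In their controls they took 0.0114% and 0.0115%, and PECAM1 made up most of these counts in every library. The part of these changes in the values of the snRNA genes was not tested.

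RNU4-1 had a log2 fold change of -0.36 (SE 0.186), RNU5A-1 -0.31 (SE 0.284) and RNU5B-1 0.04 (SE 0.330) in the knockout comparison. The intervals of the 3 genes with the fewest counts were wide. They ran from -2.09 to 0.36 for RNU5D-1, from -0.44 to 2.20 for RNU4ATAC and from -2.01 to 0.48 for RNU6ATAC. RNU5D-1 and RNU6ATAC were lower and RNU4ATAC was higher in HOTSCRAMBL KO under both labels, without passing the test.

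In base-edited cells, HOTSCRAMBL CBE against AAVS1 CBE, 1 of the 7 genes passed, where 8.83% of all genes did and 4.56% passed as higher. In HOTSCRAMBL CBE, the group that holds the deepest library, that gene, RNU4-1, was higher. Its CPM went from 178 to 301 in the MOLM13 pair and from 92.9 to 107 in the OCI-AML4 pair, and the fitted log2 difference was 0.55 (SE 0.154, edgeR adjusted p = 0.0223). The call rests on the MOLM13-labelled library of HOTSCRAMBL CBE, without which the log2 fold change was 0.13 (edgeR adjusted p = 0.903). It was also lost on leaving out any other library apart from the OCI-AML4-labelled one of HOTSCRAMBL CBE, and without the line term (0.61, edgeR adjusted p = 0.700).

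All 7 genes had a log2 fold change above 0 in this comparison, with a median of 0.35 against -0.02 over all genes. RNU5B-1 had 0.68 (SE 0.271, edgeR adjusted p = 0.137), with 37.0 against 66.1 CPM in the MOLM13 pair and 10.5 against 10.4 in the OCI-AML4 pair. RNU4-2 had 0.22 (SE 0.158), RNU5A-1 0.25 (SE 0.225), RNU5D-1 0.35 (SE 0.446) and RNU6ATAC 0.23 (SE 0.395). For RNU4-2, RNU5A-1 and RNU6ATAC the MOLM13 pair was higher and the OCI-AML4 pair lower in HOTSCRAMBL CBE.

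RNU4ATAC was the one gene of the 7 that was higher with HOTSCRAMBL as target in 4 of 4 pairs. Its CPM went from 5.02 to 8.98 and from 1.84 to 3.71 in the KO pairs, and from 3.99 to 7.43 and from 1.77 to 4.02 in the CBE pairs, with the MOLM13 label first. The average log2 fold change over both editors was 0.93 (SE 0.435, unadjusted p = 0.0426) and did not pass with edgeR (adjusted p = 0.194). DESeq2 called it (0.99, adjusted p = 0.0304), in a fit with 4863 calls over all genes where edgeR had 2958. For that average, 0 of the 7 genes passed with edgeR, where 12.3% of all genes did, and 1 of 7 had an unadjusted p under 0.05, where 23.2% of all genes did. RNU4ATAC had the lowest summed count of the 7 genes, with 46 and 50 in the OCI-AML4-labelled AAVS1 libraries and 83 and 102 in their HOTSCRAMBL counterparts.

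**Figure D5:**
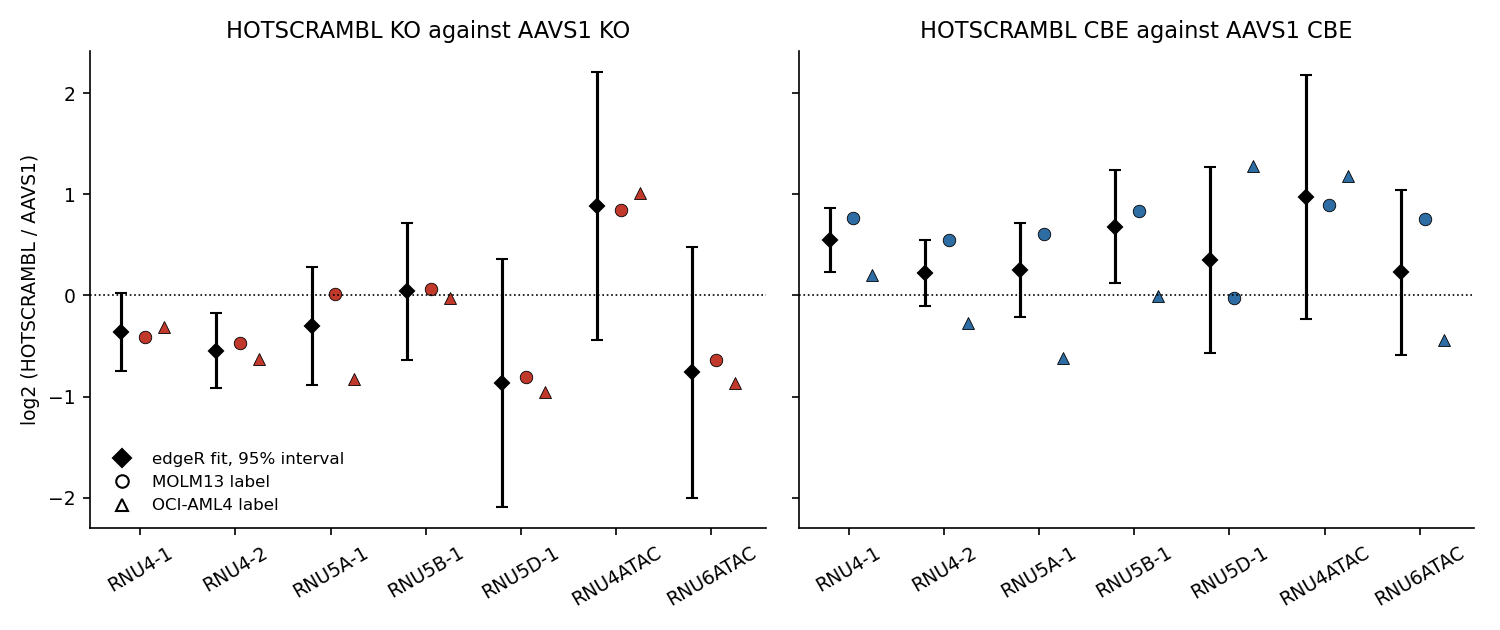
Diamonds are edgeR log2 fold changes of HOTSCRAMBL over AAVS1 with 95% intervals, for KO (left) and CBE (right), and the other points are the log2 ratio of each pair of libraries with the same line label. The intervals of RNU4-2 in KO (-0.92 to -0.18) and of RNU4-1 (0.23 to 0.87) and RNU5B-1 (0.12 to 1.24) in CBE leave out 0, and of these RNU4-1 passed the adjusted threshold.

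The 2 editors were compared through the difference of the HOTSCRAMBL effect, KO minus CBE. Of the 7 genes, 1 passed, where 3.19% of all genes did and 1.45% passed as lower. RNU4-1 had a difference of -0.91 on the log2 scale (SE 0.242, edgeR adjusted p = 0.0346), from -0.36 in KO and 0.55 in CBE. RNU4-2 had -0.77 (SE 0.239, edgeR adjusted p = 0.0878). Without the MOLM13-labelled library of HOTSCRAMBL CBE the RNU4-1 difference was -0.50 (edgeR adjusted p = 0.564), and the call was lost on leaving out each of the 8 libraries in turn except the OCI-AML4-labelled one of HOTSCRAMBL CBE. The controls, AAVS1 KO against AAVS1 CBE, gave 0 calls among the 7 genes and 0% of all genes with edgeR, where 3.82% of all genes and 0 of the 7 had an unadjusted p under 0.05. DESeq2 called 35 genes there, none of them among the 7.

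Whether the HOTSCRAMBL effect differed between the line labels was tested as an interaction, which left 2 residual degrees of freedom. With edgeR it gave 0 calls among the 7 genes and 0% of all genes, and 4.09% of all genes and 2 of the 7 had an unadjusted p under 0.05. These 2 were RNU5A-1 (1.10 on the log2 scale, SE 0.314, unadjusted p = 0.00489, edgeR adjusted p = 0.982) and RNU4-2 (0.55, unadjusted p = 0.0433). DESeq2 called 68 genes in this test and 0 of the 7. RNU5A-1 in HOTSCRAMBL against AAVS1 gave log2 ratios of 0.01 (KO) and 0.61 (CBE) in MOLM13 pairs and of -0.82 and -0.62 in OCI-AML4 pairs.

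Genes whose proteins build or process the snRNAs were read from lists beside the 9 genes. Of 27 genes for snRNA transcription and 3′ processing, 5 fell and 0 rose in HOTSCRAMBL KO, and 5 fell and 0 rose in HOTSCRAMBL CBE, with medians of -0.12 and -0.04 beside -0.01 and -0.02 over all genes. Over all genes tested, 4.25% fell and 4.51% rose in KO, and 4.27% fell and 4.56% rose in CBE, and the list counts here are to be read against these shares. SNAPC4, the largest subunit of the snRNA promoter-binding complex, fell by 0.97 (SE 0.152, edgeR adjusted p = 6.65e-05) in KO and by 0.82 (SE 0.145, edgeR adjusted p = 3.08e-04) in CBE. INTS1 of the Integrator, which cuts the 3′ end of nascent snRNA, fell by 0.55 in KO and by 0.61 in CBE. INTS3 of the same complex fell by 0.68 in KO and by 0.43 in CBE. BDP1, a factor of RNA polymerase III, fell by 0.41 in KO and by 0.39 in CBE.

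Counts of 1 among lists of 7 to 17 genes, as in several of those that follow, are near the share of all genes called (8.76% in KO and 8.83% in CBE). Among snRNP proteins, 1 of 8 Sm core genes rose in each comparison, SNRPD2 in KO (log2 fold change 1.32) and SNRPB in CBE (0.77). Of 7 LSm genes, LSM3 rose in KO (1.69) and LSM4 (0.89) and LSM2 (1.44) rose in CBE. Of 17 tri-snRNP genes, DDX23, a helicase of the U5 particle, fell in KO by 0.60. In CBE 3 of the 17 fell, SART3 (-0.72), which reassembles U4 with U6, and PRPF3 (-0.53) and PRPF31 (-0.57), which bind the U4/U6 duplex. PRPF31 shares 31.3% of its exon bases with other genes, and reads there were not counted.

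Of 13 minor spliceosome protein genes, SNRNP25 of the U11/U12 particle rose in KO (1.53), and in CBE ZCRB1 rose (1.27) and RNPC3 fell (-0.58). Of 25 genes for snRNP assembly and transport, 0 passed in KO, and in CBE STRAP (1.22) and CLNS1A (0.59), both of the assembly pathway in the cytoplasm, rose. Of 13 tested scaRNAs, SCARNA11 (0.85) and SCARNA1 (1.78) rose and SCARNA5 (-0.40) fell in KO. SCARNA21 (-1.42), SCARNA5 (-1.10) and SCARNA6 (-0.62) fell in CBE. Among 7 tested other small RNAs, 4 rose and 0 fell in KO, and 3 rose and 1 fell in CBE. RMRP rose in both comparisons (0.89 and 0.67), as did the Y RNAs RNY1 (1.52 and 1.95) and RNY3 (2.62 and 1.90). RNY4, another Y RNA, rose in KO (3.61, edgeR adjusted p = 0.00624), and RN7SL1 fell in CBE (-0.49). RNY3 was low, with group means of 2.39 to 14.6 CPM. RNY4 was lower still, with a mean of 3.84 CPM over all libraries and a minimum of 0.549 CPM. SCARNA1 was low too, at 3.66 CPM in AAVS1 KO and 12.6 CPM in HOTSCRAMBL KO. In these same fits the calls among the 9 snRNA genes were 0 in KO and 1 in CBE.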

How the data were processed

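RNA from ChIRP pull-downs of 8 libraries was analysed from 1 table of raw counts, deposited without normalization. Per the file headers, featureCounts 2.0.6 made the counts with Ensembl 112 annotation of GRCh38. No strand option was set, reads at several places or over several genes were not counted, and both reads of a pair were counted, so 71.8% to 74.9% of values from 1 to 20 were even. The aligner and the handling of duplicates are not given in the sources used here. Per the labels' protocols, fixed cells were sonicated and 10 ng of recovered RNA entered a total RNA kit.

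Records of 2 genes broken over several lines were rejoined, 62541 identifiers (99.05%) had a symbol, and 0 columns of other samples were found. Total counts ran from 20548300 to 37970163. Wilson intervals (95%) and the floor of 3 counts allow at most for counting error. Reads carry no molecular identifiers here and need not be independent molecules. Because both reads of a pair were counted, the intervals are narrower than intervals over pairs would be.

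The titles of the samples gave the groups. All genes were tested with edgeR 4.0.16 (R 4.3.3, limma 3.58.1), by the quasi-likelihood F-test with robust estimation, TMM scaling and filterByExpr (minimum count 10, 24057 genes). The model held the 4 groups and the line label (3 residual degrees of freedom), with Benjamini-Hochberg adjustment at 0.05. Replicate numbers pair libraries through the stated line, which is the same for each number. Deviations from group means of same-numbered libraries correlated across genes with r from 0.00851 to 0.0245. Simulated counts of 24057 genes with 200 changed genes were used to test the script. Ratios were tested by exact permutation without the pairing (SciPy 1.17.1). Of 12 tests intended, 10 could be run, because RNU11 and RNU12 were at 0 and their ratio does not exist. Sequences came from GENCODE 29. Some sequences and marker values are not reported here.

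The text names all 9 genes, from each list at most 3 genes per direction with the smallest p in the KO and CBE comparisons, the most counted further copy of a family, and the 5 genes with the most similar profile. List genes that passed between the line labels are named too, as are RNY4 and the myeloid markers called in the average of both editors. These additions were decided after their values were seen. The 9 genes and all lists were chosen with earlier results of these data known. Alternatives were other scalings and filters, no line term, the 4 libraries of a contrast, DESeq2 1.42.0, limma-voom, halved counts, further copies in the ratios and leaving out each library. edgeR's earlier quasi-likelihood method was added after the data were seen.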

Additional observations from a re-analysis of the deposited data

Results flagged for a closer look

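RNU4-1 differed between the editors in its response to HOTSCRAMBL, with a difference of KO minus CBE of -0.91 on the log2 scale (SE 0.242, edgeR adjusted p = 0.0346) from the test of that difference. Both KO pairs were lower (-0.41 and -0.31) and both CBE pairs were higher (0.76 and 0.20) in the HOTSCRAMBL library. The call depended on which libraries were included, as given above. Without the MOLM13-labelled library of HOTSCRAMBL CBE, the deepest, the difference was -0.50.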

How the results depend on the processing

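The comparison of line labels kept its 4 called snRNA genes, or had 5 with DESeq2, under each alternative that could be fitted, and had 4 with each library left out in turn; without the line term it could not be fitted, nor could the interaction. With no replicate block, that is without the line term, the CBE comparison had 0 called genes (RNU4-1 0.61, edgeR adjusted p = 0.700) and the difference between editors had 0 (RNU4-1 -0.99, edgeR adjusted p = 0.764). The CBE comparison also had 0 called genes with only its 4 libraries and without TMM. The KO comparison had 1 called gene, RNU4-2, without TMM, with no filter, with a stricter filter (50 counts in 2 libraries) and with edgeR's earlier method. The difference between editors had 2, RNU4-1 and RNU4-2, with no filter, with the stricter filter and with the earlier method. The average of editors had 1, RNU4ATAC, with DESeq2. With each library left out in turn the number of called genes ran from 0 to 1 for KO, 0 to 2 for CBE, 0 to 1 for the average (RNU4-2, without the MOLM13-labelled library of HOTSCRAMBL CBE) and 0 to 2 for the difference between editors. RNU5B-1 in KO changed sign with no replicate block (-0.00301) and without TMM (-0.10). With each library left out, values crossed 0 for RNU5A-1 (-0.86 to 0.042) and RNU5B-1 (-0.39 to 0.38) in KO, and in CBE for RNU4-2 (-0.32 to 0.58), RNU5A-1 (-0.62 to 0.61), RNU5B-1 (-0.17 to 0.89), RNU5D-1 (-0.045 to 1.30) and RNU6ATAC (-0.44 to 0.77). The RNU5A-1 share between labels went from -2.52 to 3.16 percentage points with further copies, and from -5.13 to 1.25 with libraries left out. The share of all counts in the 9 genes between targets ran from -0.0164 to 0.00664 percentage points. Where not given by the setting itself, the cause was not tested. RNU4ATAC, RNU5D-1 and RNU6ATAC had the lowest counts (46, 88 and 76 in 1 library). With all counts halved, their standard errors in KO (0.642, 0.593 and 0.605) were within 0.01 of those from full counts. Halving keeps the observed spread between libraries, so it cannot show whether low counts widened these errors.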
